A study of Mus musculus with 6 samples.

Results

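The genes examined here encode the subunits of voltage-gated calcium channels, voltage-gated sodium channels and potassium channels in dorsal midbrain of the mouse embryo. Members were chosen by name: a probe set belongs if its single gene symbol in the platform annotation begins with Cacna, Cacnb, Cacng, Scn followed by a number, or Kcn, with Kcnq1ot1 left out. This gave 118 of the 18193 genes measured, covered by 246 of 45037 probe sets. Of these, 116 are subunit genes (24 of calcium, 11 of sodium and 81 of potassium channels) and the other 2, Kcnmb4os1 and Kcnmb4os2, are transcripts from the strand opposite to Kcnmb4 that carry a Kcn name. Each gene is represented by its brightest probe set, taking the mean signal of the 6 arrays.

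Affymetrix A430 arrays measured total RNA from the dorsal midbrain of C57BL/6 embryos at E10.5, 3 control and 3 Ezh2 cko, with each group drawn from 2 litters. Ezh2 encodes the histone methyltransferase of Polycomb repressive complex 2, which places the repressive mark H3K27me3. In the Ezh2 cko (Wnt1-Cre+/Ezh2[SET]lox/lox), Cre under the Wnt1 promoter removes the SET domain of Ezh2, in dorsal midbrain and also in neural crest. By the methods the controls carried floxed Ezh2 without Cre, or Cre with 1 wild-type allele, whereas the labels give them all as WT. The labels do not say which sample came from which litter, and recombination was incomplete in part of the dorsal midbrain. Values are log2 signals after RMA, so a difference of 1 is a doubling. No signal level on this scale marks a silent gene, so each probe set was compared only with itself.

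Voltage-gated calcium and sodium channels consist of a large pore-forming alpha subunit and smaller partners that bring the pore to the membrane and tune its gating. Calcium channels couple depolarization to calcium entry, sodium channels carry the rising phase of the action potential, and potassium channels set the resting potential and end each spike. At midgestation most dorsal midbrain cells are dividing progenitors, and many, though not all, of these channels are switched on as neurons leave the cell cycle.

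No channel gene passed the adjusted p in the Ezh2 cko. With limma, 0 of 118 were higher and 0 were lower at an adjusted p under 0.05, beside 0.297% of all genes higher and 0.0055% lower, and the lowest adjusted p of a channel gene was 0.130, for Kcnd3. With the methods' t-test, likewise 0 passed. The threshold of the methods asks for a 1.75-fold or larger change and for an unadjusted p no higher than 0.01, and by it 3 channel genes were higher and 0 were lower in limma. These are Cacna2d1, Kcnk2 and Kcnc2, 2.54% of the members beside a background of 0.374% of all genes higher and 0.033% lower. The paper lists all 3 among its differentially expressed genes at this threshold, from a test of the arrays that it does not name. It also lists Cacnb4, through a probe set that is not the brightest of that gene and so is not counted here. With the methods' t-test in place of limma 0 of them pass this threshold, and 0 pass it without control replicate 1 or without Ezh2 cko replicate 3.

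Below these thresholds the channel genes leaned to the higher side. At an unadjusted p under 0.05 from limma, 19 were higher and 3 were lower, or 16.1% and 2.54%, beside 6.12% and 2.75% of all genes. In 21 genes, 17.8% of the members, every Ezh2 cko array lay above every control array, and in 6 genes, 5.08%, every one lay below, beside 7.52% and 7.88% of all genes. These counts rest on the brightest probe set of each gene. Of the 71 members with several probe sets, 46 had sets of both signs. The difference was positive for 67 and negative for 51, so 56.8% were positive beside 43% of all genes, of which 57% were negative. The median log2 difference was 0.03 beside -0.02 over all genes, and 86 of the 118 differences lay within 0.2 of 0. The largest difference was 0.85, for Cacna2d1, and the lowest was -0.28, for Scn11a. For 110 genes the 95% confidence interval of the difference stayed within 1.75-fold in either direction, and for the other 8 it reached 1.75-fold upward. In bulk tissue, more cells that express a channel and more RNA per cell cannot be told apart.

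The members that stood apart were mostly the brighter ones. Of the 60 members above the median signal of all probe sets, 18 had every Ezh2 cko array above every control, or 30% beside 9.10% of all genes of that brightness. Of the 58 dimmer members 3 did, or 5.17% beside 4.46%. Dim probe sets may report little or no transcript, so for those 58 genes a value near 0 is weak evidence of equal expression.

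**Figure D1:**
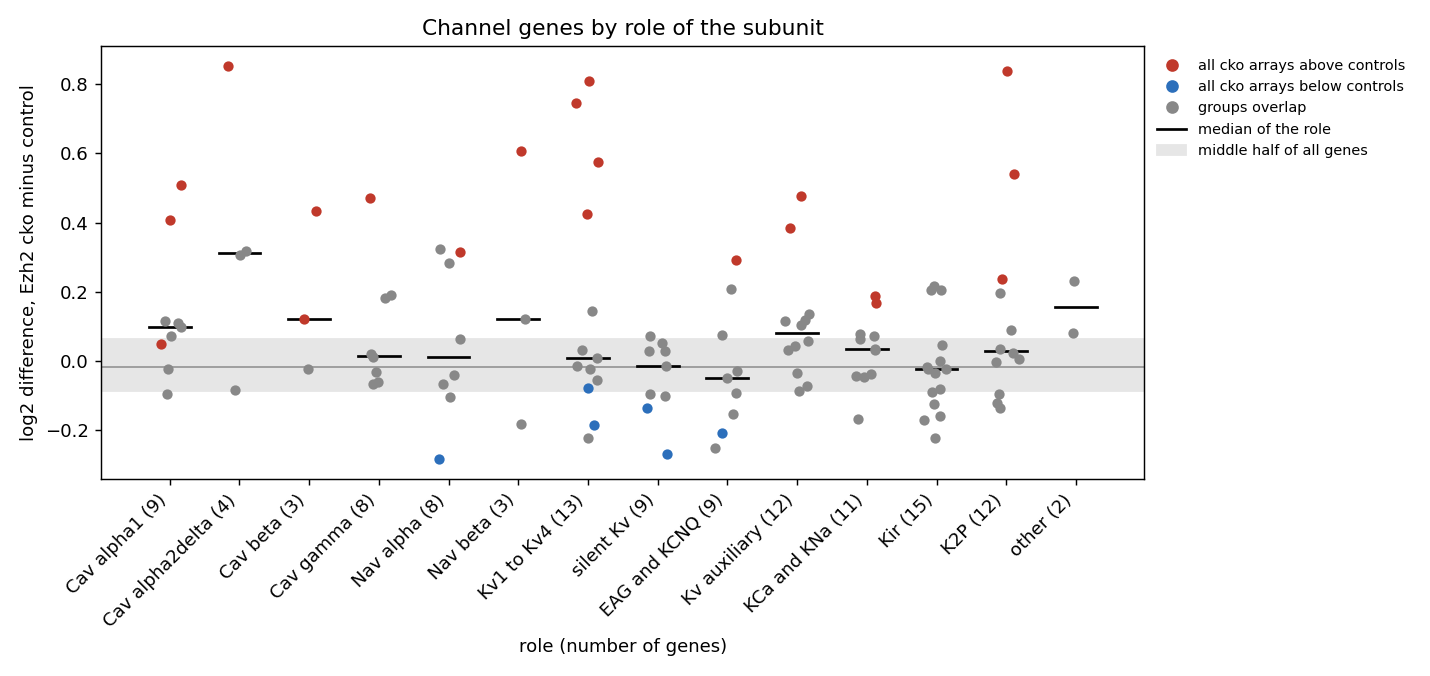
Log2 difference between Ezh2 cko and control for each of the 118 channel genes, grouped by role, with the number of genes in each role in brackets. Red points have every Ezh2 cko array above every control (21 genes), blue points every one below (6 genes), black bars are the medians of the roles and the grey band is the middle of all genes from the lower to the upper quartile. The upper end holds Cacna2d1, Kcnk2 and Kcnc2, and the 15 inward rectifiers have no coloured point.

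The shares of members that stood apart are given by channel type, beside 7.52% of all genes on the higher side and 7.88% on the lower. Among the 24 calcium channel genes the median log2 difference was 0.10, 17 were positive, and 7 (29.2%) had no overlap on the higher side and 0 on the lower. Among the 11 sodium channel genes the median was 0.06, with 6 positive, 2 (18.2%) apart on the higher side and 1 (9.09%) on the lower. Among the 83 genes with a Kcn name it was 0.02, with 44 positive, 12 (14.5%) apart on the higher side and 5 (6.02%) on the lower. On the lower side the shares of the sodium channel and Kcn genes were near that of all genes, and that of the calcium channel genes, at 0, was below it. No difference between these groups was tested.

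Markers of several cell types also had mostly positive differences, and their extreme arrays were those of several channel genes. Of 28 neuron markers 26 had a positive difference, with a median of 0.35, although 0 passed the adjusted p in limma and 5 (17.9%) had every Ezh2 cko array above every control, beside 7.52% of all genes. Their median deviation from the 6-array mean was -0.45, -0.01 and -0.01 on control replicates 1 to 3, against -0.05, 0.16 and 0.41 on Ezh2 cko replicates 1 to 3. Control replicate 1 thus stood lowest and Ezh2 cko replicate 3 highest, and the groups overlapped. Macrophage markers were positive for 13 of 13, with a median of 0.23, and 2 (15.4%) stood apart on the higher side. Mesenchyme and neural crest markers were positive for 13 of 15, with a median of 0.20, and 6 (40%) stood apart on the higher side and 1 on the lower. On both lists control replicate 1 was again lowest (-0.39 and -0.34) and Ezh2 cko replicate 3 highest (0.19 and 0.15). Without control replicate 1 the median was 0.21 for neuron, 0.0735 for macrophage and 0.0980 for mesenchyme and neural crest markers. Of 12 progenitor markers, with a median of 0.04, 4 (33.3%) stood apart on the higher side and 1 on the lower, with Fabp7 at 0.49, Hes1 at 0.38 and Sox3 at -0.44. Medians were 0.05 for endothelium, -0.08 for erythroid and -0.04 for muscle markers. The part of any of these cell types, neurons included, in the channel results was not tested. The midbrain genes Otx2, En1, En2 and Pax7 had control means of 11.25, 8.15, 12.34 and 9.85. En1 differed by 0.37 (limma adjusted p = 0.520) and En2 by 0.17 (adjusted p = 0.712), both without overlap between the groups, while Otx2 differed by 0.09 and Pax7 by 0.06, with overlap. Ezh2 itself has a single probe set, with a mean of 11.70 ± 0.05 (SD, n = 3) over controls against 11.75 ± 0.04 (SD, n = 3) over Ezh2 cko arrays (limma adjusted p = 0.918). Since the tables do not place it inside or outside the deleted exons, it does not check the deletion. By antibody staining, apart from these arrays, the paper reports loss of Ezh2 protein in the midbrain from E10.5.

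**Figure D2:**
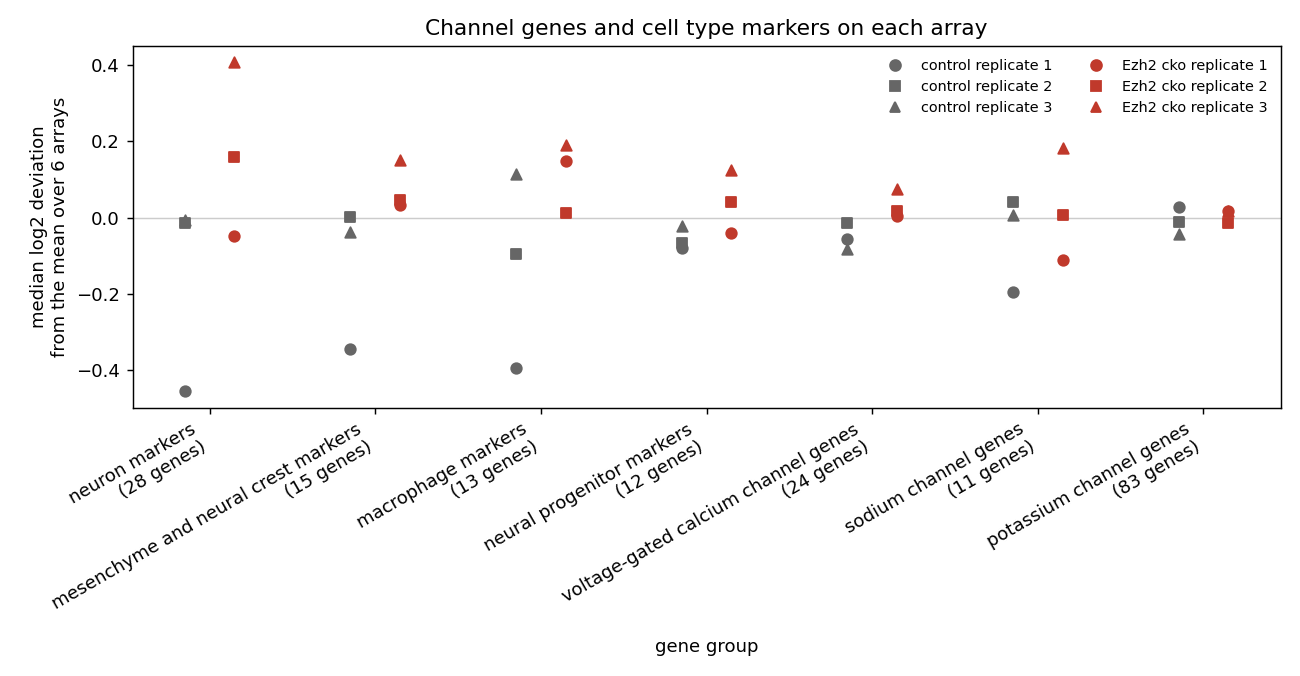
Median log2 deviation from the mean over 6 arrays, on each array, for 4 lists of cell type markers and for the calcium, sodium and potassium channel genes. Grey symbols are controls and red symbols Ezh2 cko, with 1 symbol shape per replicate number. Neuron markers spread from -0.45 in control replicate 1 to 0.41 in Ezh2 cko replicate 3, and the channel groups spread less, with sodium channel genes between -0.19 and 0.18.

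When the mean of the neuron markers entered the model as a term, 0 channel genes passed the adjusted p in limma, as without it, and 0 the threshold of the methods. At an unadjusted p under 0.05 from limma, 15 of 118 were higher and 5 lower, beside 4.13% and 2.49% of all genes. The 21 genes apart on the higher side all stayed positive, with a median of 0.40 beside 0.43 without the term. They were picked on these same values, so the signs of these genes under the term are no test. The neuron markers, with a median log2 difference of 0.35, themselves differ between the groups, so the term and the group are partly mixed. The term moved the genes unequally, and the differences of most of the 21 became smaller. The difference of Cacna2d1 went from 0.85 to 0.45, that of Kcnk2 from 0.84 to 0.47, that of Kcnc2 from 0.81 to 0.41, that of Scn3b from 0.61 to 0.33 and that of Scn8a from 0.31 to 0.10, within its standard error of 0.10 under the term. Under the term Cacnb4, Kcnmb4 and Cacna1s, at 0.10, 0.08 and 0.07, were also within their standard errors. Cacna1s, at 0.05 with a standard error of 0.07, was so without the term as well. Kcna5 fell from 0.75 to 0.59, Cacna1h from 0.51 to 0.29, Kcnip4 from 0.48 to 0.40, Kcnd3 from 0.43 to 0.33 and Kcne1l from 0.38 to 0.26. By contrast Kcnk1 went from 0.54 to 0.70, Cacnb2 from 0.43 to 0.69, Cacna1c from 0.41 to 0.50, Kcnq3 from 0.29 to 0.42 and Kcna1 from 0.58 to 0.61.

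Sequence before the start of transcription is shown for the 3 genes past the threshold of the methods, because H3K27me3 is found mainly over CpG-rich promoters. Each line gives the 250 bases before the outermost start that RefSeq lists on GRCm38.p6, 5′ to 3′ on the strand of the gene, with every CG dinucleotide in capitals. Cacna2d1 lies on the plus strand (chr5:15934441-15934690), Kcnk2 on the minus strand (chr1:189402274-189402523) and Kcnc2 on the plus strand (chr10:112269767-112270016).
Cacna2d1: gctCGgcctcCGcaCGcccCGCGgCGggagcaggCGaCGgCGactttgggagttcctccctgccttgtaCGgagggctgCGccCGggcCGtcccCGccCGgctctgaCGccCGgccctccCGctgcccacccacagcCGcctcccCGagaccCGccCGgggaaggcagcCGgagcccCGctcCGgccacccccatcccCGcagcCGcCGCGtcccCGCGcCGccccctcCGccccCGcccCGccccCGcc
Kcnk2: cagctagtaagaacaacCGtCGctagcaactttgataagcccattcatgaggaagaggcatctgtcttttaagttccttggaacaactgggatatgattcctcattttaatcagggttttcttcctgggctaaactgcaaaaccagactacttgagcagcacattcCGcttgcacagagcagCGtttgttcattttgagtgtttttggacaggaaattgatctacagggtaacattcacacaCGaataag
Kcnc2: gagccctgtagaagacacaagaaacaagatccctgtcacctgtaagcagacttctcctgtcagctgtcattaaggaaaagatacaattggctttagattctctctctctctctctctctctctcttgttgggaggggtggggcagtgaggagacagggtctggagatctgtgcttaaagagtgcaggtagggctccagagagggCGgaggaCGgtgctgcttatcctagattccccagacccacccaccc

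The 3 windows were unlike each other. The Cacna2d1 window holds 36 CG, a number that 2.575% of the 32851 windows in the table reach. The Kcnk2 window holds 5, reached by 55.584% of windows, and the Kcnc2 window holds 2, reached by 81.179%. Kcnk2 has further starts, whose windows hold between 2 and 28 CG, and the arrays do not say which start was used. A window was given for 90 of the 118 members. Counting for each gene the window richest in CG, the median was 16 for the 17 genes that stood apart on the higher side, 10 for the other 73 channel genes and 6 for all 27025 genes with a window. A gene with several windows has more of them to take the richest from, and the genes that stood apart more often had several. They were also mostly brighter, and neither the number of windows nor brightness was matched between these sets. This is a description, with no test, and no histone mark was measured here.

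Among the pore-forming alpha1 subunits of calcium channels, 3 of 9 (33.3%) had every Ezh2 cko array above every control, beside 7.52% of all genes. The median log2 difference was 0.10. Cacna1h, the pore of a T-type channel that opens near the resting potential, was at 5.43, 5.51 and 5.81 in the controls and at 5.92, 6.10 and 6.26 in the Ezh2 cko. Cacna1c, the pore of the L-type channel of neurons and heart, was at 5.78, 5.79 and 5.68 against 6.36, 5.97 and 6.13. In both genes the lowest Ezh2 cko array was above the highest control, by a log2 difference of means of 0.51 for Cacna1h (limma adjusted p = 0.277) and 0.41 for Cacna1c (adjusted p = 0.329). A second, dimmer probe set of Cacna1h differed by 0.02. Cacna1s, the pore of the skeletal muscle channel, also stood apart but by only 0.05. Cacna1b, the pore of the N-type channel of nerve terminals, was named after its values were seen, because its 4 probe sets disagreed, at 0.11 in the brightest and at -0.12, 0.48 and 0.52 in the others.

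The alpha2delta subunits raise the number of channels at the membrane, and some of them are targets of gabapentin. Their median log2 difference was 0.31 over 4 genes, and 0.15 without control replicate 1. Cacna2d1 was at 6.73, 7.33 and 7.33 in the controls and at 7.83, 7.86 and 8.26 in the Ezh2 cko. All Ezh2 cko arrays lay above all controls, and the 2 extreme arrays, control replicate 1 and Ezh2 cko replicate 3, were also the extreme ones for the neuron, macrophage, and mesenchyme and neural crest marker lists. The difference was 0.85 (standard error 0.18), or 1.81-fold, with an unadjusted p of 0.00127 and an adjusted p of 0.189 in limma. Of its 5 probe sets, 4 had no overlap on the higher side, with differences of 0.85, 0.50, 0.49 and 0.09, and the fifth was at -0.07, so that the mean of all 5 differed by 0.37. Without control replicate 1 the difference was 0.65, and without Ezh2 cko replicate 3 it was 0.72. Cacna2d2 and Cacna2d3 differed by 0.32 (adjusted p = 0.637) and 0.31 (adjusted p = 0.758), and the groups overlapped in both.

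The beta subunits bind the alpha1 pore inside the cell and carry it out of the endoplasmic reticulum. Cacnb2 was at 6.20, 6.09 and 5.85 in the controls and at 6.75, 6.39 and 6.29 in the Ezh2 cko, without overlap but with the nearest arrays close together, and differed by 0.43 (limma adjusted p = 0.467). Cacnb4, which is known from the lethargic mouse with ataxia and seizures, gave different sizes with its 3 probe sets. The brightest set was at 5.90, 5.87 and 5.90 against 5.92, 6.10 and 6.02, a difference of 0.12 (adjusted p = 0.792). A dimmer set was at 4.23, 4.14 and 4.71 against 5.26, 4.91 and 5.43, a difference of 0.84 (standard error 0.18, adjusted p = 0.181) that is past the threshold of the methods. The paper lists Cacnb4 as differentially expressed through this dimmer set. The third set differed by 0.28. All 3 were higher in the Ezh2 cko, and 2 of them without overlap. When each gene was represented by the mean of all its probe sets, Cacnb4 differed by 0.41 and passed in limma (adjusted p = 0.0355, with p-values adjusted over genes). It was the only channel gene to pass in any setting tried, beside 0.528% of all genes higher and 0.011% lower in that setting.

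Of the gamma subunits, many of which act as partners of AMPA glutamate receptors, 1 of 8 (12.5%) stood apart on the higher side, beside 7.52% of all genes. Cacng5 was at 5.94, 6.23 and 5.81 in the controls and at 6.49, 6.44 and 6.47 in the Ezh2 cko, with a tight Ezh2 cko group above all controls. It differed by 0.47 (limma adjusted p = 0.247), while its dimmer probe set differed by -0.15. Cacng8 differed by 0.19 (adjusted p = 0.821), with overlap.

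Sodium channel pores showed both directions. Of the 8 alpha subunits 4 were positive and 4 were negative. Scn8a, the channel of the axon initial segment and of mature nodes of Ranvier, was at 6.38, 6.57 and 6.72 in the controls and at 6.76, 6.82 and 7.05 in the Ezh2 cko, a difference of 0.31 (limma adjusted p = 0.557) without overlap. The differences of the 5 probe sets of Scn8a ran from -0.09 to 0.32. Scn3a, the main pore of the embryonic brain, was at 4.28, 5.0 and 5.44 against 4.88, 5.27 and 5.54, so the arrays of the 2 groups were interleaved and the difference of 0.32 was far inside their spread (adjusted p = 0.846). With the neuron marker term the difference of Scn3a was -0.30. Scn11a, a channel of nociceptive sensory neurons named after its values were seen, was at 5.17, 5.36 and 5.48 against 5.13, 4.91 and 5.12, a difference of -0.28 (adjusted p = 0.570), with every Ezh2 cko array below every control.

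The beta subunits of sodium channels are small proteins with an immunoglobulin domain that modulate gating and cell adhesion. Scn3b was at 7.17, 7.22 and 7.42 in the controls and at 7.54, 7.92 and 8.17 in the Ezh2 cko. The groups did not overlap, and replicate 3 was highest in the Ezh2 cko, as it was for the neuron, macrophage and mesenchyme marker lists. The difference was 0.61 (standard error 0.15), or 1.52-fold (limma adjusted p = 0.302), and the dimmer probe set differed by -0.09. Scn4b differed by -0.18 (adjusted p = 0.767).

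The Shaker, Shaw and Shal families form classical voltage-gated potassium pores and make up the group named Kv1 to Kv4 here, whose Shab genes were not analysed. The median over its 13 genes was 0.01, yet 4 genes (30.8%) stood apart on the higher side and 2 (15.4%) on the lower, beside 7.52% and 7.88% of all genes. Kcnc2, a Shaw pore of fast-spiking neurons, was at 4.38, 4.75 and 4.71 in the controls and at 5.11, 5.33 and 5.82 in the Ezh2 cko. It differed by 0.81 (standard error 0.18), or 1.75-fold, with an unadjusted p of 0.00173 and an adjusted p of 0.214 in limma. The groups did not overlap, the lowest and the highest array were again control replicate 1 and Ezh2 cko replicate 3, and the signal was below the median of all probe sets.

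Kcna5, a Shaker pore of heart and vascular muscle as well as brain, was at 8.0, 8.52 and 7.95 in the controls and at 8.98, 8.61 and 9.13 in the Ezh2 cko. Kcna1, the Shaker pore whose loss causes episodic ataxia and seizures, was at 7.96, 8.28 and 7.85 against 8.81, 8.45 and 8.56. In both genes control replicate 2 was the highest control and Ezh2 cko replicate 2 the lowest of its group, and the groups did not overlap. Kcna5 differed by 0.75 (standard error 0.18), or 1.68-fold (limma adjusted p = 0.258), and Kcna1, named after its values were seen, differed by 0.58, or 1.49-fold (adjusted p = 0.246). Of the 4 probe sets of Kcna1, 3 had no overlap, at 0.58, 0.51 and 0.55, and the fourth was at 0.03. The set at 0.55 was at 5.17, 5.09 and 5.01 against 5.51, 5.74 and 5.68 and had the lowest adjusted p of any channel probe set, 0.0712.

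Kcna5, Kcna1 and Kcna6 follow each other in the genome. Among the 14 runs of neighbouring members, which hold 32 of the 116 members found in the RefSeq gene table, theirs was the only one with more than 1 gene apart on the higher side. Kcna6 differed by 0.14 (limma adjusted p = 0.826), with overlap. In the neighbouring pair Kcna3 and Kcna2 the differences were -0.02 and -0.08, and in the run of Cacng5, Cacng4 and Cacng1 they were 0.47, 0.18 and -0.03.

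Kcnd3, a Shal pore that carries the transient A-type current, was at 8.50, 8.66 and 8.62 in the controls and at 8.99, 8.98 and 9.10 in the Ezh2 cko. Both groups were tight and well apart. The difference was 0.43 (standard error 0.08), or 1.34-fold, with the lowest adjusted p of any member, 0.130 in limma, and Kcnd3 was named for it after the values were seen. Its other 3 probe sets, all far dimmer, differed by -0.04 to 0.03. Kcna2, a Shaker pore of myelinated axons also named after its values were seen, had probe sets of both signs, at -0.08 in the brightest and -0.25, 0.24 and 0.34 in the others.

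**Figure D3:**
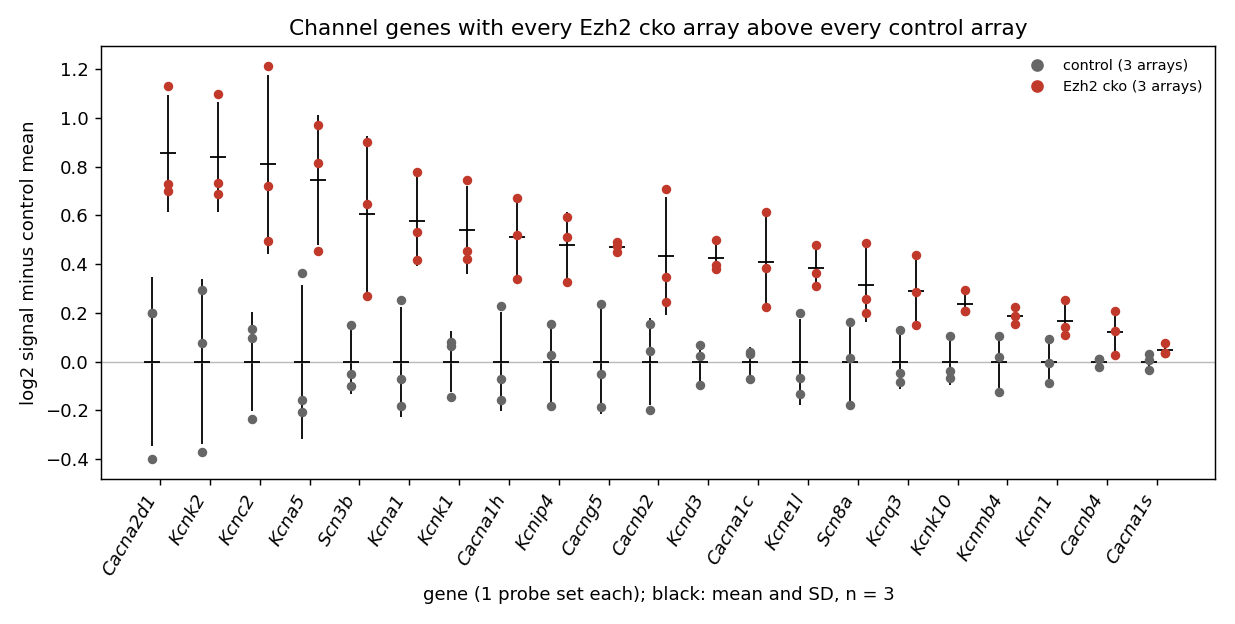
Log2 signal on each array, as deviation from the mean of the controls, for the 21 channel genes in which every Ezh2 cko array (red) lay above every control array (grey), ordered by the size of the difference. Differences run from 0.85 for Cacna2d1 to 0.05 for Cacna1s, and none passed the adjusted p. Black bars give the mean and SD (n = 3).

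Silent Kv subunits do not form channels alone and instead modify Shab pores. Of 9 genes 4 were positive, and 2 (22.2%) stood apart on the lower side, beside 7.88% of all genes, a small count from a small role. Kcns1 was at 3.93, 3.76 and 3.66 in the controls and at 3.57, 3.53 and 3.45 in the Ezh2 cko, a difference of -0.27 (limma adjusted p = 0.505), and Kcng4 differed by -0.14 (adjusted p = 0.747). Both are dim on these arrays.

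The EAG and KCNQ families include the ERG channels and the M-current, which slow and limit repetitive firing. Their median over 9 genes was -0.05. Kcnq3, an M-current pore, was at 6.46, 6.25 and 6.29 in the controls and at 6.77, 6.48 and 6.62 in the Ezh2 cko, a difference of 0.29 (limma adjusted p = 0.521), just without overlap. Kcnh2, the ERG pore of cardiac repolarization, named after its values were seen, was at 9.02, 9.06 and 8.99 against 8.83, 8.84 and 8.78. Its 2 groups were tight and apart on the lower side, by -0.21 (adjusted p = 0.517). Kcnh7, another ERG pore, differed by -0.25 (adjusted p = 0.739), with overlap. Kcnq1, which lies in an imprinted domain, was at 5.95, 5.95 and 5.79 against 5.84, 5.55 and 5.83, a difference of -0.16 (adjusted p = 0.792), with overlap.

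The auxiliary subunits of Kv channels bind the pore from inside or within the membrane. Of 12 genes 9 were positive, with a median of 0.08. Kcnip4, a calcium-binding partner of Shal pores, was at 3.85, 3.64 and 3.98 in the controls and at 4.15, 4.33 and 4.42 in the Ezh2 cko, a difference of 0.48 (limma adjusted p = 0.240). Kcne1l, a single-span subunit of the KCNE family, was at 5.98, 6.32 and 6.05 against 6.48, 6.43 and 6.60, a difference of 0.38 (adjusted p = 0.349). Neither gene had overlapping groups. Kcnip4 is dim, and its other probe sets differed by 0.30 and -0.00435.

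Channels gated by calcium or sodium ions inside the cell had small differences, between -0.17 for Kcnt2 (limma adjusted p = 0.796) and 0.19 for Kcnmb4, the neuronal beta subunit of the BK channel (adjusted p = 0.673). Kcnmb4 and the SK pore gene Kcnn1, at 0.17, stood apart on the higher side, 18.2% of this role beside 7.52% of all genes. The transcripts opposite to Kcnmb4 differed by 0.08 for Kcnmb4os1 (adjusted p = 0.926) and 0.23 for Kcnmb4os2 (adjusted p = 0.633), both with overlap.

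The 15 inward rectifiers, which hold the resting potential and include the G protein-gated and ATP-sensitive channels, were the largest role. They had 0 genes apart in either direction, beside 7.52% higher and 7.88% lower of all genes, shares at which few of 15 genes would be apart. Of them 4 were positive and 11 were negative, with a median of -0.02. The extremes were Kcnj15 at -0.22 (limma adjusted p = 0.755) and Kcnj12 at 0.22 (adjusted p = 0.793). The interval of every inward rectifier stayed within 1.75-fold in both directions.

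Tandem-pore (K2P) channels carry the background leak of potassium. Of 12 genes 8 were positive and 3 (25%) stood apart on the higher side, beside 7.52% of all genes. Kcnk2, the mechanosensitive leak channel TREK, was at 6.79, 7.45 and 7.23 in the controls and at 7.89, 7.84 and 8.26 in the Ezh2 cko, without overlap and with the same 2 extreme arrays as the neuron, macrophage and mesenchyme marker lists. It differed by 0.84 (standard error 0.17), or 1.79-fold, with an unadjusted p of 0.00116 and an adjusted p of 0.181 in limma. Without control replicate 1 the difference was 0.65, and without Ezh2 cko replicate 3 it was 0.71.

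Kcnk1, the leak channel TWIK, was at 7.73, 7.72 and 7.51 in the controls and at 8.40, 8.10 and 8.07 in the Ezh2 cko. Here Ezh2 cko replicate 1 was highest and control replicate 3 lowest, unlike in those marker lists. The difference was 0.54 (standard error 0.11), or 1.45-fold (limma adjusted p = 0.171), and the second probe set differed by 0.31, also without overlap. Kcnk10, a TREK relative, differed by 0.24 (adjusted p = 0.515), and was named after its values were seen. The other probe set of Kcnk10 differed by -0.03. Kcnk9 was not analysed here.

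**Figure D4:**
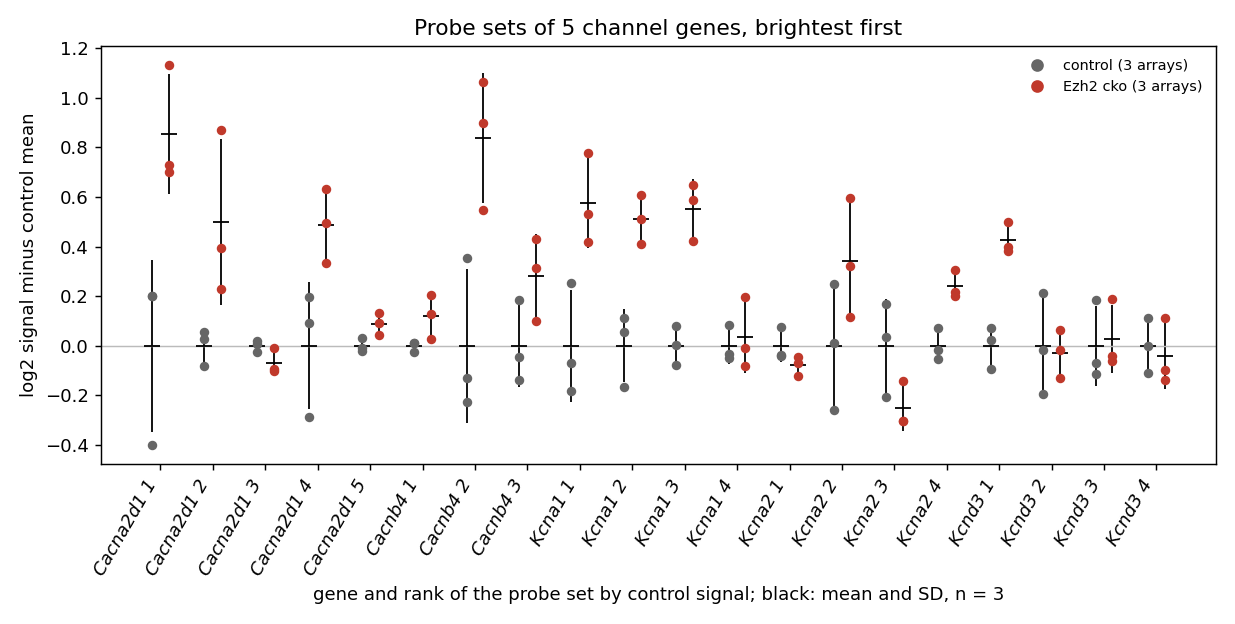
Log2 signal on each array, as deviation from the mean of the controls, for every probe set of 5 channel genes, with the brightest set of each gene first, controls in grey, Ezh2 cko in red, and black bars for the mean and SD (n = 3). Of the sets of Kcna1 3 of 4 and of Cacna2d1 4 of 5 lie apart on the higher side, Kcnd3 differs in its brightest set alone, and Kcna2 has sets on either side.

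Signals of further channels and channel partners were read from a list of 67 genes, of which 58 were measured: chloride, HCN, TRP and leak channels, ankyrins, fibroblast growth factor homologues that bind sodium channels, LGI proteins, and the repressor REST, which silences many channel genes outside neurons. In limma 0 passed the adjusted p in either direction and 0 passed the threshold of the methods, while at an unadjusted p under 0.05 there were 3 higher (5.17%, beside 6.12% of all genes) and 1 lower. Of the 58, 40 were positive, 7 (12.1%) stood apart on the higher side and 2 (3.45%) on the lower, beside 7.52% and 7.88% of all genes, and the median was 0.05. Lgi1, a secreted partner of Kv1 channels, differed by 0.46 (adjusted p = 0.673), Fgf11 by 0.46 (adjusted p = 0.490), and the chloride channels Clcn3 and Clcn2 by 0.43 (adjusted p = 0.680) and 0.42 (adjusted p = 0.342). Rest itself differed by 0.05 (adjusted p = 0.929).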

How the data were processed

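Total RNA from dorsal midbrain was measured on 1 array per sample. The authors deposited a log2 signal for every probe set, made with RMA (background correction, quantile normalization and probe summary). The version of RMA is not given in the sources used here. Array signals carry no depth, and the number of arrays limits the precision.

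After 64 control probe sets were left out, the lmFit and eBayes functions of limma 3.58.1 (R 4.3.3) were applied to the other 45037, as Ezh2 cko minus control without a covariate, and p-values were adjusted over all of them with the Benjamini-Hochberg method. For the arrays no test is named in the methods, so the methods' t-test for other data was an alternative. By the methods the samples are dissected midbrains of embryos from 2 litters per group, and the labels do not give the embryo or litter of each, so p-values measure the spread between these samples.

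Gene symbols come from the platform annotation, in which 34945 probe sets have 1 symbol, 932 have several and 9160 have none. The probe set with the highest mean represents a gene. Named genes are those past the adjusted p or the threshold of the methods, the 2 largest absolute differences in each role, Kcnq1 and Kcnk9, and the 4 largest of the list of further channels. Genes outside this rule are said to be named after their values were seen, or are given to complete a small count or a run of neighbours. The members and all lists were chosen with earlier results of these data known. Promoter sequence is from RefSeq (GRCm38.p6), and CG was counted on the strand of the gene. The procedure was tested on simulated data. Alternatives were the methods' t-test, a trended and robust prior, weights per array, leaving out dim probe sets, 3 other normalizations, leaving out sets with names ending in _x_at or _s_at, the mean of all probe sets of a gene, the replicate number as a block, the neuron marker mean as a term, leaving out each array, and other thresholds.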

Additional observations from a re-analysis of the deposited data

How the results depend on the processing

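Of 1289 values recomputed under the alternatives, 1230 were labelled the same. For a count this means equal to or within 1.5-fold of the main count, and for a median a move within the spread between arrays of a group. For a gene it means the same sign and the same side of the adjusted p, whatever became of the threshold of the methods. Some values could not change, such as counts without overlap where the same signals were fitted in another way. At an adjusted p under 0.05, 0 channel genes passed in every setting except the mean of all probe sets of a gene, where 1 was higher. At an adjusted p under 0.1, 1 channel probe set passed, that of Kcna1. The count past the threshold of the methods, 3 in the report, was 0 with the methods' t-test, array weights or the neuron marker term, 5 at a fold minimum of 1.5, 0 at a fold minimum of 2, and 0 to 4 with 1 array left out. The count lower at an unadjusted p under 0.05 in limma was 1 of 60 with the filter on dim probe sets, beside 2.52% of all genes. It was 5 of 118 with the neuron marker term, beside 2.49%, and 2 to 6 of 118 with 1 array left out, beside 1.86% to 4.33%. The count without overlap was 25 to 30 higher and 9 to 16 lower with 1 array left out, when 10.9% to 13.3% of all genes were apart on the higher side and 11.7% to 18.05% on the lower. With the filter it was 1 of 60 lower, beside 7.96% of all genes. The 16 lower came without control replicate 3, where 18.05% of all genes were lower. With the replicate number as a block, 0 passed the adjusted p, 3 passed the threshold of the methods, and 22 were higher and 3 lower at an unadjusted p under 0.05. The deviations of same-numbered samples correlated at 0.06, -0.20 and 0.06, so the numbers were not taken to pair the samples.

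The causes of these shifts were not tested. With the filter on dim probe sets the median log2 difference was 0.12 for the channel genes, 0.18 for gamma subunits, 0.0897 for tandem-pore channels, 0.0716 for calcium- and sodium-gated potassium channels, 0.0876 for Kv1 to Kv4, 0.30 for sodium alpha, 0.36 for sodium beta and 0.34 for mesenchyme and neural crest. With the neuron marker term it was 0.00882 for alpha2delta, 0.0833 for calcium- and sodium-gated potassium channels, 0.12 for Kv1 to Kv4, -0.22 for sodium alpha, -0.0196 for sodium beta, 0.0123 for macrophages, -0.0737 for progenitors, 0.00212 for neurons, 0.0188 for the further channels and 0.0385 for muscle, and Scn3a was at -0.30. With the mean of all probe sets it was 0.34 for calcium beta and 0.0243 for Kv auxiliary subunits, and Cacnb4 was at 0.41. With quantile normalization it was -0.0614 for silent Kv subunits.

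With 1 array left out, the median ranged from 0.00384 to 0.0549 for the channel genes, 0.0510 to 0.12 for calcium alpha1, 0.15 to 0.40 for alpha2delta, 0.0773 to 0.17 for calcium beta, -0.0392 to 0.0771 for gamma, -0.0605 to 0.0947 for sodium alpha, 0.0414 to 0.19 for sodium beta, -0.0162 to 0.11 for Kv1 to Kv4, -0.11 to 0.0271 for silent Kv, -0.12 to -0.0108 for EAG and KCNQ, 0.0678 to 0.11 for Kv auxiliary subunits, -0.0107 to 0.0595 for calcium- and sodium-gated potassium channels, -0.0872 to 0.0183 for inward rectifiers, 0.0104 to 0.0769 for tandem-pore channels and 0.0262 to 0.0660 for the further channels. For the markers it ranged from 0.21 to 0.44 for neurons, 0.0735 to 0.36 for macrophages, 0.0980 to 0.30 for mesenchyme and neural crest, -0.0214 to 0.10 for progenitors, -0.00666 to 0.10 for endothelium, -0.17 to 0.0450 for erythroid cells and -0.0944 to -0.00302 for muscle. Kcnmb4os1 ranged from -0.0220 to 0.15, below 0 without control replicate 2 and, at -0.0213, without Ezh2 cko replicate 3.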
